A study of Mus musculus with 9 samples.

Results

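Antibody transcripts in mouse skin were read by 74 probe sets, of 12488 on the array and 12422 without control probe sets. These read 36 genes. A probe set, a group of short probes read together as 1 signal, was included when every gene symbol the platform annotation gives it belongs to an immunoglobulin heavy, kappa or lambda locus, and the J chain gene was added. The annotation gave 62 of them 1 symbol and the other 12 several. By locus, 35 probe sets read kappa light chain, 2 lambda light chain, 6 heavy variable segments and 16 the mu constant gene Ighm. A further 1 read Ighd, 7 Ighg3, 3 Igha, 3 a mixture of heavy chain genes and 1 Jchain.

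An antibody is built from heavy chains and light chains. Each chain joins 1 variable segment, chosen by DNA rearrangement from a large array of such segments, to a constant region, and in mice most light chains are kappa. The heavy constant gene sets the class: Ighm gives IgM and Ighd gives IgD on naive B cells, Ighg3 gives a class of IgG and Igha gives IgA, while the J chain joins IgM and IgA into multimers. Plasma cells, which secrete antibody, carry far more of these transcripts than resting B cells, so a few plasma cells can set the antibody signal of a whole tissue. CD1d presents lipids to natural killer T cells, which can help B cells. Normal mouse skin holds few B cells and plasma cells.

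Whole skin came from 5 individual CD1d knockout mice (Cd1d -/-) on the C57BL/6 background and from 4 individual wild-type C57BL/6 mice (Cd1d +/+). All 9 were inbred and not exposed to UVB, and the groups were matched for age and sex, whose values are not given in the labels. RNA of each mouse was hybridised to its own Affymetrix MG-U74 GeneChip, and variation among arrays therefore holds that among animals. The labels give neither the knockout allele nor whether littermates were used, so a difference between groups cannot be told apart from one in strain or housing.

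Signals are in arbitrary MAS5 units and differences are log2 of knockout minus wild type. The 2% trimmed mean signal was 200.11 to 200.133 on every array. The targeted gene Cd1d1 read 60.3 ± 12.7 in the knockouts against 109 ± 16.7 in the wild types (SD, n = 5 and 4), without overlap (log2 difference -0.86, limma adjusted p = 0.242, exact two-sided permutation p = 0.0159, the smallest the design can give). Of the keratinocyte markers, Krt10, Krt1, Dsp and Trp63 were bright, but the Krt5 and Krt14 probe sets were dim in both groups (mean signals 12.3 to 15.7). A probe set was tested when it reached the 40th percentile of the array, a signal of 43.4 to 53.3, in at least 4 of the 9 arrays. This kept 7658 probe sets, 30 of them immunoglobulin. Limma called 4 of the 7658 at an adjusted p under 0.05, 2 higher and 2 lower, and 1 of the 4 is an Ighm probe set. The deposited values carry 7 decimals in 5 arrays (knockouts 1 and 2, wild types 2 to 4) and 9 decimals in the other 4. No label says what this marks, and values within each kind of array are given beside the results.

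Kappa light chain signal was lower in knockout skin for most probe sets and stood at 54.0% of wild type at the brightest one. No tested kappa probe set passed the threshold. One Ighm probe set rose while the other 3 bright enough to test did not pass and had differences near or below 0. The 3 Igha probe sets, 2 of them dim, pointed upwards and those of Ighd and Jchain downwards, none past the threshold. For Ighg3 the 1 tested probe set was near 0 (-0.095), and the 6 dim ones lay below 0. In bulk skin, fewer antibody-producing cells and less antibody RNA per cell cannot be told apart.

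**Figure D1:**
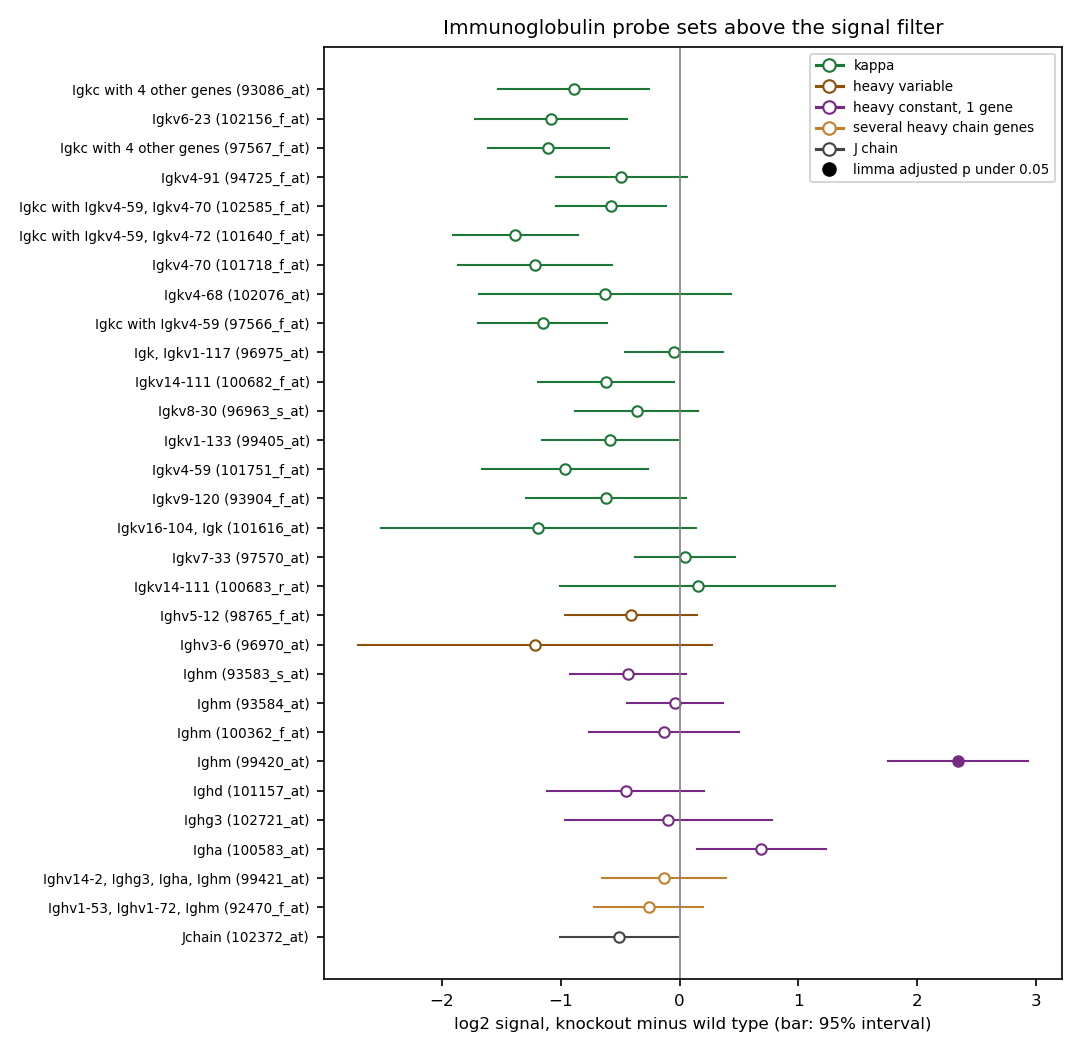
Log2 signal difference, knockout minus wild type, of the 30 immunoglobulin probe sets above the signal filter, with 95% intervals from limma (5 knockout and 4 wild-type mice), coloured by kind of chain. Of the 18 kappa probe sets, 16 lie below 0. The filled point, Ighm 99420_at at 2.34, is the only one past the threshold.

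The kappa locus lies on chromosome 6, and the 14 kappa variable genes named by tested probe sets spread from position 6 to position 139 among 162 kappa variable entries in the RefSeq order, pseudogenes included. The brightest probe set, 93086_at, is annotated to the constant gene Igkc together with Igkj1 and the variable genes Igkv6-23, Igkv4-53 and Igkv8-30. Igkc is the single constant region shared by every kappa chain. In wild types 1 to 4 it read 3595, 3570.3, 4386.3 and 6062.5, and in knockouts 1 to 5 it read 2575, 3027.2, 3947.5, 1586 and 1375.5. Knockouts 4 and 5 were the lowest of the 9 mice and wild type 4 the highest, while knockout 3 lay above wild types 1 and 2, so the groups overlapped. The means were 2502 ± 1058 (SD, n = 5) and 4404 ± 1169 (SD, n = 4). The knockout stood at 54.0% of wild type on the log scale (log2 difference -0.89, SE 0.29, 95% interval -1.53 to -0.25), with a limma adjusted p = 0.410. It was -0.71 in the arrays with 7 decimals and -0.81 in those with 9.

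Kappa probe sets without overlap between the groups numbered 6 of the 18 tested, all lower in knockout, where 1.38% of the 7658 probe sets separated in that direction. All 6 end in _f_at, the suffix of the array maker for probes shared by members of a gene family, so they may read many of the same transcripts and are not independent measurements. For Igkv6-23 (102156_f_at), wild types 1 to 4 read 1041.8, 811.3, 862.4 and 1875.7, and knockouts 1 to 5 read 513.9, 600.1, 800.5, 461.8 and 305.6. The highest knockout, knockout 3, came close to the lowest wild type. The difference was -1.08 (SE 0.29, limma adjusted p = 0.336).

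Probe set 101640_f_at, annotated to Igkc with Igkv4-59 and Igkv4-72, had the largest difference among the tested kappa probe sets. Its wild-type signals were 133.4, 155.2, 169.2 and 266.9, and its knockout signals were 61.8, 66.4, 95.9, 72.7 and 47.4. Every knockout lay well below every wild type, at 38.3% of the wild-type level (log2 difference -1.38, SE 0.24, limma adjusted p = 0.113). With arrays weighted by their quality, limma called it at an adjusted p = 0.0412, in 1 of 22 alternative settings. The other 21 did not call it, and with 1 mouse left out the limma adjusted p was 0.0556 to 0.317. The weights also raised the calls among all 7658 tested probe sets from 4 to 9.

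A closely related probe set, 97567_f_at (Igkc with Igkv4-59, Igkv4-70, Igkv4-72 and Igkv4-68), read 262.1, 269.6, 251.5 and 501.3 in wild types 1 to 4 and 129.9, 162.1, 202, 118.8 and 117.7 in knockouts 1 to 5. Wild type 4 stood far above the other wild types, and all knockouts lay below them. The difference was -1.10 (SE 0.23, limma adjusted p = 0.198). For 97566_f_at (Igkc with Igkv4-59) the wild types read 108.3, 81.6, 92.2 and 142.9 and the knockouts 51.9, 57.9, 54, 46.3 and 29.6, so knockouts 2 and 3 lay just above the filter range of 43.4 to 53.3 and the other knockouts within or below it. The difference there was -1.15 (SE 0.25, limma adjusted p = 0.198).

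Igkv4-70 alone (101718_f_at) had a mean of 71.9 ± 24.5 in the knockouts and 164 ± 53.6 in the wild types (SD, n = 5 and 4). Its knockout signals were 84.1, 97.2, 85.1, 38.1 and 55 against 135.3, 114.1, 171.1 and 236.6, a difference of -1.22 (limma adjusted p = 0.299). The smallest difference of the 6 was that of Igkv14-111 (100682_f_at), -0.62 (limma adjusted p = 0.507). Knockouts 1 to 5 read 70.1, 65.4, 70.1, 62.3 and 33.9 there and wild types 1 to 4 read 88.7, 71.1, 79.3 and 128.4, so knockouts 1 and 3 came close to wild type 2. A second probe set of the same gene, 100683_r_at, had a difference of 0.15 (SE 0.53), so that 2 probe sets annotated to 1 variable gene gave differences of opposite sign.

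**Figure D2:**
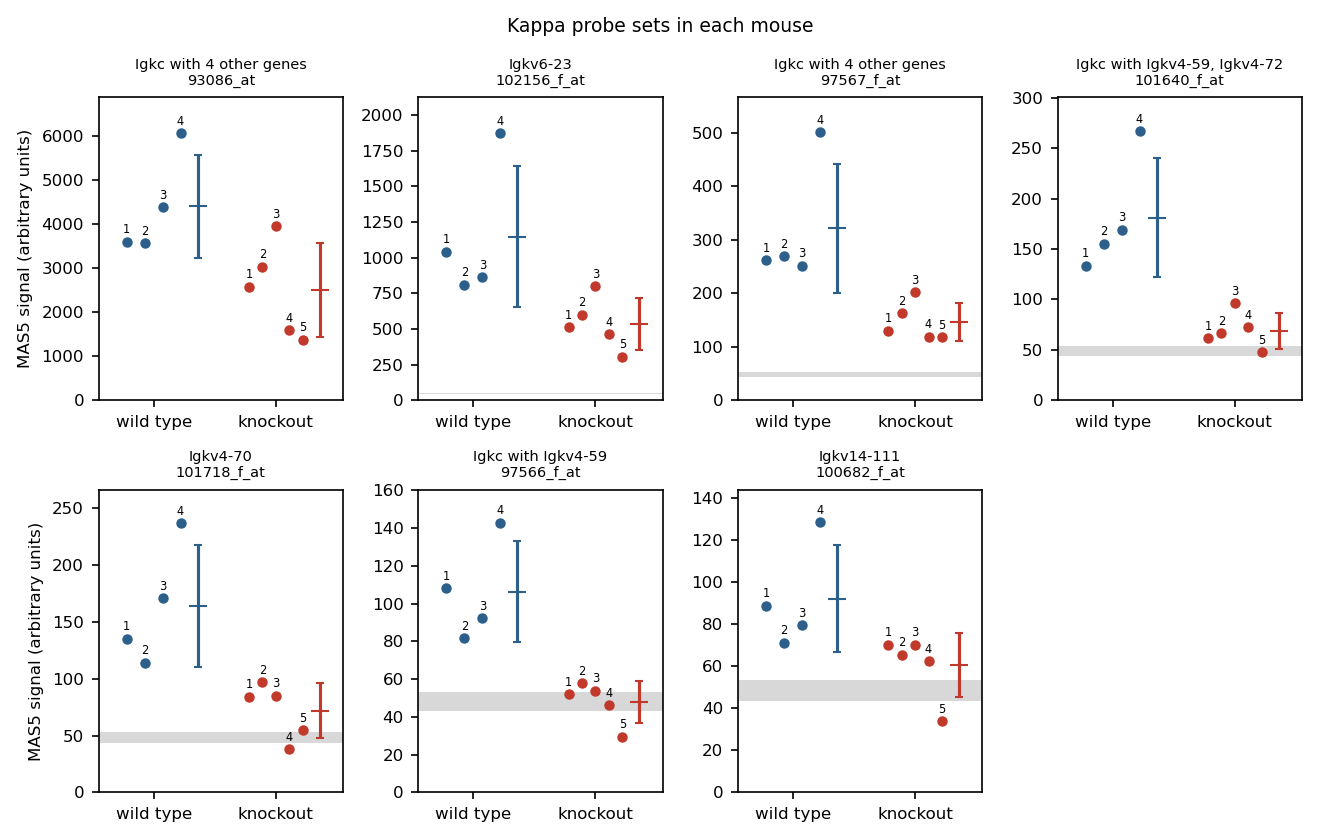
MAS5 signal (linear axes from 0) of the brightest kappa probe set and of the 6 whose groups do not overlap. Points are mice, numbered as replicates, bars are mean ± SD (4 wild type, 5 knockout), and the grey band is the filter signal of 43.4 to 53.3. Wild type 4 is the highest point in all 7 panels, and the groups overlap only for 93086_at.

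Over the 18 tested kappa probe sets, 16 had a difference below 0 and 2 above, where 48.8% of all tested probe sets lay below 0. Their median was -0.62, against 0.0071 over all 7658, of which 1.84% lay at or below that value. Limma called 0 of the 18 after adjustment (0.0522% of all probe sets), and the smallest adjusted p was 0.113. At an unadjusted p under 0.05, 10 were lower and 0 higher, against 3.96% and 5.45% of all probe sets (9.40% together). Among these 10, 101751_f_at (Igkv4-59, difference -0.96) reached the filter level in the 4 wild types and in no knockout, so its selection favoured a value below 0. It is part of these counts, of the kappa median and of the per-mouse medians below. The kappa median ranged from -0.88 to -0.50 when 1 mouse was left out, and was -0.50 without wild type 4, with 16 of the 18 still below 0. With 64 added to each signal it was -0.40. It was -0.60 within the 7-decimal arrays (14 of 18 below 0) and -0.84 within the 9-decimal arrays (18 of 18).

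The 17 kappa probe sets too dim for the filter are part of the set as well, and passing the filter can favour a probe set that is bright in 1 group. Without any filter, 29 of all 35 kappa probe sets had a difference below 0 (49.0% of 12422), with a median of -0.63. Groups did not overlap for 8, all lower in knockout (1.22% of 12422, with 1.64% higher). Divided instead by mean signal over all 9 mice, 15 of the 16 brighter kappa probe sets and 14 of the 19 dimmer ones lay below 0.

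One dim kappa probe set passed the threshold only when the filter was dropped. It reads Igkv10-96 (99369_f_at), with signals of 2.2, 4.7, 4.9, 5.7 and 4.8 in knockouts 1 to 5 and of 21.9, 22.9, 29.2 and 28.1 in wild types 1 to 4. The difference was -2.58 (limma adjusted p = 0.0431 over 12422), but every one of these signals lies below the filter level, where MAS5 values have a large relative error. Igkv9-120 was the other dim probe set without overlap (99396_at, difference -1.29, limma adjusted p = 0.420 over 12422).

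Kappa differences varied with the kind of probe set. Among the 17 family probe sets (_f_at), 16 were below 0 without a filter and the median was -1.10, while among the 18 others 13 were below 0 and the median was -0.37. All 10 probe sets with any Igkv4 gene in their annotation lay below 0, with a median of -1.03 without a filter, against 19 of the 25 without one and a median of -0.59. The 5 probe sets annotated to the constant gene Igkc, all tested, ranged from -1.38 to -0.58. Several of these probe sets share genes, so the counts describe the annotation and say nothing of how many separate transcripts differ.

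Summed up per mouse as the median deviation of the 18 tested kappa probe sets from their 9-mouse mean, knockouts 1 to 5 stood at -0.23, -0.019, -0.094, -0.57 and -0.78 and wild types 1 to 4 at 0.38, -0.041, 0.35 and 0.93 (log2). Wild type 2 lay just below knockout 2, and the other wild types lay above all knockouts. Over the 10 tested family probe sets alone, the knockouts ranged from -0.95 to -0.054 and the wild types from 0.098 to 1.09, without overlap. Of these 10, 6 are the probe sets already given as without overlap, so this separation follows largely from them and adds no support.

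Lambda light chains, the minor type in mice, were read by 2 dim probe sets, neither of which was kept. Iglc1 (93639_r_at) had a mean of 35.6 in the knockouts and 44.6 in the wild types, and the probe set of Iglc1 with Iglv1 (93638_s_at) had 2.82 and 3.55. Both differences were below 0 (-0.46 and -0.48), at signals too low to test against the kappa values.

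Heavy variable segments gave no call either. Of the 6 probe sets, all on chromosome 12, 2 were tested. Ighv5-12 (98765_f_at) read 251, 259.9, 172.9, 98 and 210 in knockouts 1 to 5 and 253.7, 220, 237.5 and 290.4 in wild types 1 to 4. Knockout 4 was far below all others, and 3 of the 5 knockouts lay at or near the wild-type range. The difference was -0.41 (SE 0.26, limma adjusted p = 0.656), and it was 0.045 within the 7-decimal arrays and -0.73 within the 9-decimal arrays. Without knockout 4 it was -0.18, and with the hair follicle covariate, the median level of 8 hair follicle genes, -0.80. Ighv3-6 (96970_at) had 81.8 in knockout 2 and 10.4 to 12.9 in the other knockouts, against 51.2, 44, 15.1 and 72.9 in wild type. Its difference of -1.22 had a 95% interval of -2.71 to 0.27. Without a filter 5 of the 6 were below 0.

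The mu constant gene Ighm is the last of the 8 heavy constant genes in chromosome order and the one nearest the variable segments. The annotation gives it 16 probe sets, the most of any single gene of the set. Their readings disagreed. Several end in _f_at, the suffix for probes shared by members of a gene family, and no probe sequences were used. Whether all 16 read this gene alone was therefore not tested. The probe set 99420_at rose 5.08-fold in knockout skin. Its signals were 65, 91.1, 84.1, 66.5 and 116.2 in knockouts 1 to 5 and 16.3, 16.4, 20 and 13.1 in wild types 1 to 4. Every knockout lay above the filter level and every wild type below it, so the fold rests on wild-type signals that MAS5 measures poorly. It was tested through its knockout arrays alone, so its selection favoured a value above 0. The means were 84.6 ± 20.9 (SD, n = 5) and 16.5 ± 2.82 (SD, n = 4), and the difference was 2.34 (SE 0.27, 95% interval 1.75 to 2.94, limma adjusted p = 0.00531). Of all probe sets, 0.0261% were called higher, 1.83% separated the groups upwards, and 0.157% had a difference at least this large.

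Leaving out any 1 mouse kept 99420_at past the threshold (differences 2.22 to 2.44, limma adjusted p = 0.00557 to 0.0369). These fits kept the filter set on all the mice, so they do not check its selection through the knockouts. It did not pass with the median level of the 8 tested of 12 hair follicle genes as a covariate (difference 2.19, limma adjusted p = 0.0614). All 8 hair follicle genes lay above 0 with a median of 1.52, where 48.8% of all tested probe sets lay below 0. Limma called 0 of them (0.0522% of all), and 5 had an unadjusted p under 0.05 (9.40% of all). The summed signal of the 8 was 1711 to 22088 in knockout and 1167 to 2423 in wild-type mice. The difference of 99420_at was 2.24 within the 7-decimal arrays (limma adjusted p = 0.190) and 2.41 within the 9-decimal arrays. It was 2.31 with the decimals as a block (limma adjusted p = 0.0299). With 64 added to each signal it was 0.87.

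The brightest Ighm probe set, 93583_s_at, gave 1158, 1158.1, 1432.9, 747.6 and 708.8 in knockouts 1 to 5 and 1374.1, 1205.4, 1124.3 and 1814.5 in wild types 1 to 4. As for 93086_at, knockouts 4 and 5 were lowest and wild type 4 highest, and knockouts 1 to 3 lay among the other wild types. The means were 1041 ± 307 (SD, n = 5) and 1380 ± 308 (SD, n = 4), and the difference was -0.43 (SE 0.22, limma adjusted p = 0.575).

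Another Ighm probe set, 93584_at, read 354.8, 303.1, 296.2, 218.3 and 200.3 in the knockouts and 324.2, 238.5, 254.2 and 293.8 in the wild types. The ranges coincided, with a difference of -0.039 (95% interval -0.44 to 0.36) that was 0.33 within the 7-decimal and -0.47 within the 9-decimal arrays. The fourth, 100362_f_at, had knockout signals of 69.6, 101.6, 72.5, 71.3 and 68.9 and wild-type signals of 118.3, 86.5, 41.9 and 110.7. The wild types enclosed all the knockouts, and the difference was -0.13 (95% interval -0.76 to 0.50), or 0.19 within the 7-decimal arrays.

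**Figure D3:**
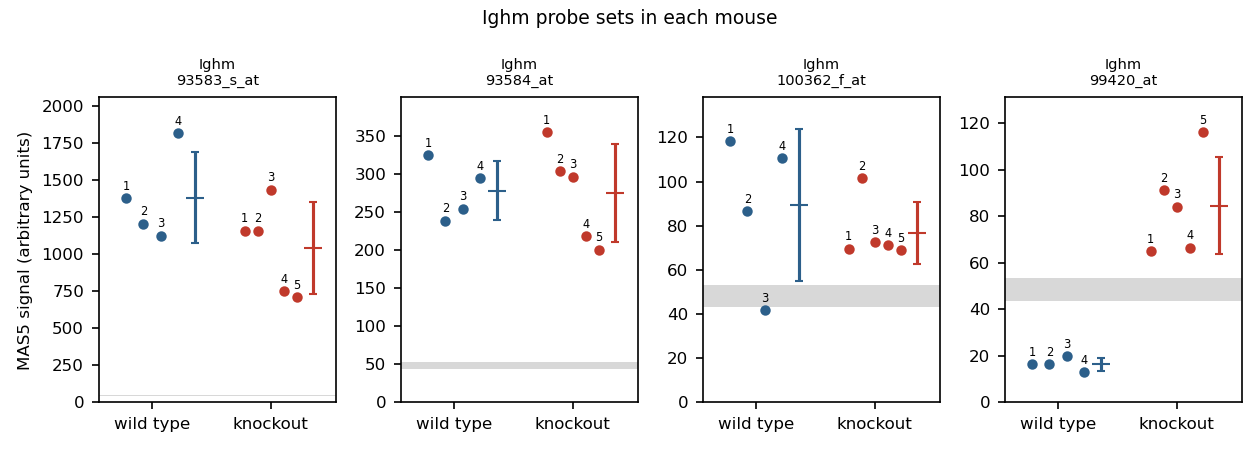
MAS5 signal (linear axes from 0) of the 4 Ighm probe sets that passed the filter. Points are mice, numbered as replicates, bars are mean ± SD (4 wild type, 5 knockout), and the grey band is the filter signal of 43.4 to 53.3. Only for 99420_at do the groups separate, with all wild types (13.1 to 20) below the band and all knockouts (65 to 116.2) above it.

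The 4 probe sets were then compared through their own knockout-minus-wild-type differences, in 6 pairs. Taken minus the difference of 99420_at, that of 93583_s_at was -2.78, that of 100362_f_at -2.47 and that of 93584_at -2.38 on the log2 scale. Because 99420_at passed the filter through its knockout arrays alone and was already called, these 3 gaps are a description, with no test, and they rest on its low wild-type signals. Between 93583_s_at and 93584_at the gap was -0.40 (exact two-sided permutation p = 0.0476, adjusted p = 0.0714 over the 6 pairs). For 93583_s_at and 100362_f_at it was -0.30 (exact permutation p = 0.365, adjusted p = 0.438), and for 93584_at and 100362_f_at 0.091 (exact permutation p = 0.778, adjusted p = 0.778). The adjustment over the 6 pairs counts the 3 with 99420_at, which can lower the adjusted p of the others. No pass is therefore read from it.

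The other 12 Ighm probe sets were dim, with means over the 9 mice of 2.07 to 25.6, and none reached the filter level in any mouse. Without a filter 8 of them lay below 0 and 4 above, none was called and none separated the groups. Their extremes were 99885_at at -1.35 (mean 3.64 in knockout, 7.83 in wild type) and 101870_at at 0.69 (16.8 and 8.03). Over all 16 Ighm probe sets, 11 lay below 0 and the median was -0.14. So 1 of the 16 probe sets annotated to this gene was called, and its direction was not shared by the other 3 tested.

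IgD is made from the same primary transcript as IgM, and Ighd lies next to Ighm. Its probe set, 101157_at, read 144.8, 103.6, 128, 43.1 and 94.3 in knockouts 1 to 5 and 127.8, 110.8, 131.9 and 153.5 in wild types 1 to 4. Knockout 4 was again the lowest, and knockouts 1 and 3 lay inside the wild-type range. The difference was -0.45 (SE 0.30, limma adjusted p = 0.676). It was -0.096 within the 7-decimal and -0.67 within the 9-decimal arrays, and -0.17 without knockout 4.

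Ighg3 had 7 probe sets, of which 102721_at was tested. It read 80.6, 71.1, 72.6, 56.1 and 79.9 in the knockouts and 109.9, 25.4, 113.8 and 106.8 in the wild types. Wild type 2 was the lowest of all 9 mice, while the other wild types lay above every knockout. The difference was -0.095 (SE 0.40, limma adjusted p = 0.964), a near 0 value that rests on wild type 2: without that mouse it was -0.62 (limma adjusted p = 0.401). Without a filter all 7 Ighg3 probe sets were below 0, with a median of -0.52. The constant genes Ighe, Ighg1, Ighg2b and Ighg2c were read by no probe set of the annotation used here.

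Igha, the first of the constant genes in chromosome order and the class made at mucosal surfaces, had all 3 of its probe sets above 0. The tested probe set, 100583_at, gave 189.1, 178.7, 215.4, 105.7 and 200.9 in knockouts 1 to 5 and 83.9, 110.6, 163 and 87.4 in wild types 1 to 4. All knockouts except knockout 4 lay above all wild types. The means were 178 ± 42.6 (SD, n = 5) and 111 ± 36.5 (SD, n = 4), 1.61-fold apart (log2 difference 0.69, SE 0.25, 95% interval 0.15 to 1.23, limma adjusted p = 0.435). The value was 0.66 within the 7-decimal and 0.98 within the 9-decimal arrays, and 0.57 to 0.89 when 1 mouse was left out. Both dim Igha probe sets also lay above 0 (0.79 and 0.51), at mean signals of 5.78 to 24.0.

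Of the 3 probe sets annotated to several heavy chain genes, 99421_at (Ighv14-2, Ighg3, Igha and Ighm) read 453.2, 458.5, 401, 189 and 397.8 in the knockouts and 418.3, 341.8, 437.2 and 398 in the wild types. Only knockout 4 stood outside the wild-type neighbourhood, and the difference was -0.13 (limma adjusted p = 0.895). Probe set 92470_f_at (Ighv1-53, Ighv1-72 and Ighm) had a difference of -0.26 (limma adjusted p = 0.735).

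The J chain, which links IgM and IgA units and is made by antibody-secreting cells, has 1 probe set, 102372_at, whose gene lies on chromosome 5 apart from the antibody loci. It read 102.7, 98, 103.5, 57.2 and 75.8 in knockouts 1 to 5 and 91, 114.8, 124.4 and 167.5 in wild types 1 to 4. Only wild type 1 fell among the knockouts. The means were 87.4 ± 20.3 (SD, n = 5) and 124 ± 32.0 (SD, n = 4), and the difference was -0.51 (SE 0.23, 95% interval -1.01 to -0.01, limma adjusted p = 0.522). J chain stood at -0.41 in the arrays with 7 decimals, at -0.25 in those with 9, and at -0.36 without wild type 4.

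**Figure D4:**
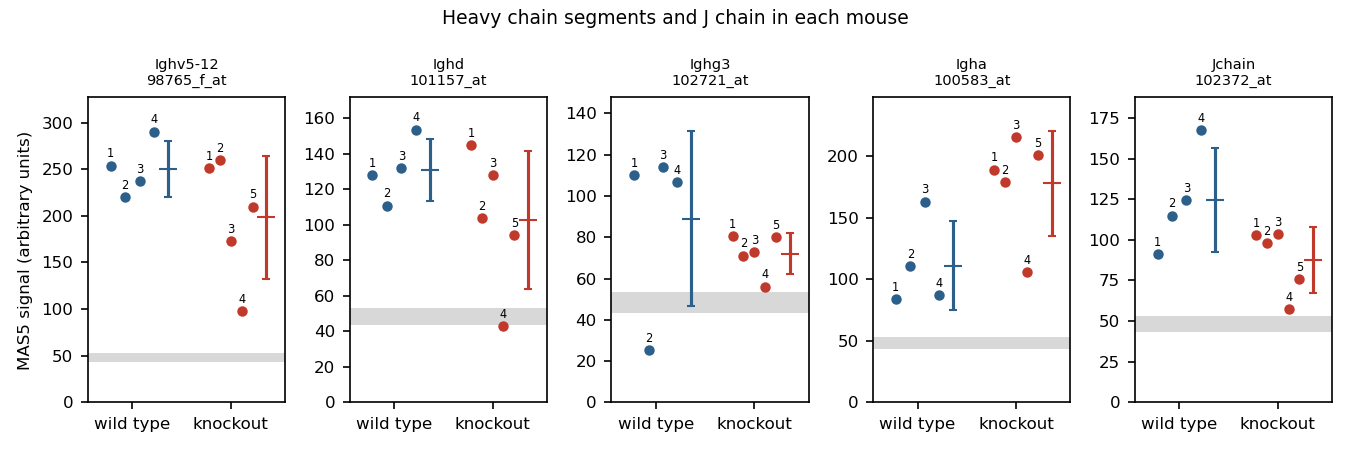
MAS5 signal (linear axes from 0) of the brightest tested probe sets of heavy variable segments, Ighd, Ighg3, Igha and J chain. Points are mice, numbered as replicates, bars are mean ± SD (4 wild type, 5 knockout), and the grey band is the filter signal of 43.4 to 53.3. The groups overlap in all 5 panels, knockout 4 is the lowest knockout in each, and only Igha has the higher mean in knockout skin.

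Over all 74 probe sets without a filter, 59 lay below 0 and 15 above, and limma called 1 lower (99369_f_at) and 1 higher (99420_at) at an adjusted p over 12422 (0.0483% of all were called, and 0.0242% lower). Kappa accounts for 29 of the 59. Among the 36 heavy chain probe sets 27 lay below 0, with a median of -0.26.

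Whether the kinds of chain differed from one another was asked with the brightest tested probe set of each of 7 kinds, in 21 pairs chosen after the values were seen. None of the 21 passed the threshold after adjustment, and 6 had an exact permutation p under 0.05. The widest gap was that of kappa (93086_at) minus Igha (100583_at), -1.58. Heavy variable minus Igha was -1.10, Ighd minus Igha -1.14 and Igha minus J chain 1.20. Each of these gaps reached the smallest possible exact permutation p = 0.0159, with an adjusted p = 0.0833. Kappa against Ighm (93583_s_at) gave -0.46 (exact permutation p = 0.0317, adjusted p = 0.111).

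The same probe sets were compared across mice after each group's mean had been removed, so that mouse-to-mouse variation within the groups remained. All 21 correlations were above 0, from 0.079 to 0.93 with a median of 0.48. The probe sets of one mouse share its array and its scaling, which can by itself raise such values. The permutations ran over all 9 mice across both groups, although removing the means ties the values of a group together. The p values of these correlations are therefore approximate, and exact only in that every order of the mice was used. The closest pair was kappa 93086_at with Ighm 93583_s_at, with Pearson r = 0.93 (exact permutation p = 0.000612, adjusted p = 0.0128, n = 9) and Spearman rho = 0.95 (exact permutation p = 0.000353, adjusted p = 0.00741). Without the 2 mice farthest from the median of 93086_at, knockouts 5 and 3, r was 0.86.

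J chain followed kappa with r = 0.82 (exact permutation p = 0.00717, adjusted p = 0.0502) and rho = 0.88 (exact permutation p = 0.00308, adjusted p = 0.0215, n = 9), and r was 0.94 without the same 2 mice. J chain and Ighd gave r = 0.81 (adjusted p = 0.0502) and rho = 0.88 (adjusted p = 0.0215) by exact permutation, and r was 0.70 without knockouts 4 and 1. Igha and Ighm gave r = 0.079 (exact permutation p = 0.840), a value that joins 0.54 among the knockouts and -0.75 among the wild types. Igha and kappa gave r = 0.29 (exact permutation p = 0.452), with 0.49 among the knockouts and -0.10 among the wild types. Of the 21 pairs, 1 passed the adjusted threshold by Pearson's r and 3 by Spearman's rho, on these approximate p values. The arrays of each kind of decimals are too few for a correlation of their own.

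**Figure D5:**
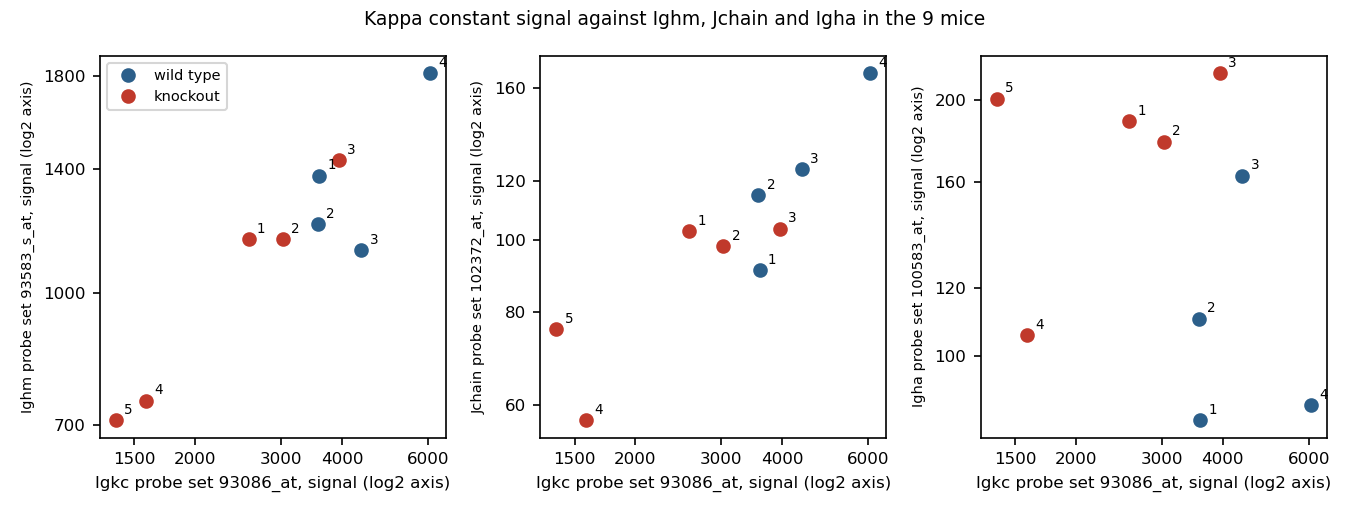
Signal of Ighm 93583_s_at, Jchain 102372_at and Igha 100583_at against kappa 93086_at in the 9 mice (both axes log2, points numbered as replicates, 4 wild type and 5 knockout). Ighm and Jchain signals climb with kappa across the mice, with knockouts 4 and 5 at the low end and wild type 4 at the top, while the Igha signals of 83.9 to 215.4 show no such line.

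Markers of the cells that make antibody were examined beside the antibody transcripts. Of 16 B cell genes 8 were tested, and limma called 0 (1 at an unadjusted p under 0.05), with 3 below and 5 above 0 and a median of 0.14. Over all 7658 tested probe sets, the shares to set beside this and the lists below were 48.8% below 0, 9.40% at an unadjusted p under 0.05 and 0.0522% called. Ms4a1 (CD20) read 83.1 ± 29.4 in the knockouts and 81.8 ± 21.2 in the wild types (SD, n = 5 and 4), a difference of -0.0096. Cd79a, a signalling chain of the B cell receptor, had a difference of 0.71 (limma adjusted p = 0.599), while Cd79b, Cd22 and Cr2 were below the filter. Cd37, a leukocyte membrane protein, was the only one of the 8 without overlap, with a difference of -0.30 (limma adjusted p = 0.443). Of all tested probe sets, 1.38% separated in that direction. The summed signal of the 8 B cell genes was 761.5 to 991 in knockout and 815.4 to 875.9 in wild-type mice.

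Of 12 plasma cell genes 6 were tested, and limma called 0 (0 at an unadjusted p under 0.05), with 3 below and 3 above 0 and a median of 0.044. Sdc1, which keratinocytes also express, had a difference of 0.13, Prdm1 0.24, Irf4 -0.031 and Xbp1 -0.12. Tnfrsf17, a receptor for plasma cell survival signals, read 62.2 ± 18.0 and 64.5 ± 0.640 (SD, n = 5 and 4). Several of these genes are active in other skin cells, so their level does not count plasma cells. The summed signal of the 6 was 1497 to 2079 in knockout and 1586 to 1747 in wild-type mice.

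Among 15 tested genes of B cell receptor signalling, 11 lay below 0 and 4 above, with a median of -0.090. Limma called 0 (2 at an unadjusted p under 0.05), among them the lowest, Inpp5d, a lipid phosphatase, at -0.99 (limma adjusted p = 0.520). A second tested Inpp5d probe set had 0.22. Of the genes for early B cells and recombination, 5 were tested, 3 below and 2 above 0 with a median of -0.10, and limma called 0 (0 at an unadjusted p under 0.05). The Rag1 probe set among them had -0.73 (limma adjusted p = 0.566).

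Receptors for antibody included 3 tested genes, with Pigr, which carries IgA and IgM across epithelia, at -0.27, Fcgr1 at -0.32 and Fcgr2b at -0.28, none called. Of the B cell growth and homing signals 1 was tested, Cxcl13, which attracts B cells, at 63.1 ± 24.1 in the knockouts and 134 ± 102 in the wild types (difference -0.82, limma adjusted p = 0.612).

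Genes of blood and of other leukocytes were examined beside the kappa difference. Of the red cell genes, Hba-a1 and Hbb-b2, which encode globins, were called lower (-1.38 and -1.40, limma adjusted p = 0.00531 and 0.00896), and all 4 tested genes lay below 0. Their summed signal was 1356 to 2043 in knockout and 3362 to 5094 in wild-type mice, and wild type 4 was the highest mouse for both Hba-a1 and kappa 93086_at. The lowest knockouts for kappa, 4 and 5, were instead the highest knockouts for Hba-a1 (1637.9 and 1359.9). All 10 macrophage and dendritic cell genes lay below 0 (48.8% of all tested probe sets) with a median of -0.35. None was called (0.0522% of all), and 6 had an unadjusted p under 0.05 (9.40% of all). The summed signal of the 10 was 9800 to 11585 in knockout and 11909 to 13672 in wild-type mice. Of the T cell genes 3 were tested, with a median of 0.019 and none called. The part of blood content or of other leukocytes in the kappa difference was not tested.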

How the data were processed

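Skin RNA of 9 mice was measured on 1 array each. MAS5, the authors' program (Microarray Suite, version 5.0, per the labels), gave 1 signal a probe set. What was deposited is the natural log of that signal, as the numbers show: their exponentials are whole multiples of 0.1, and trimmed means match across arrays. Values were converted to log2 and not normalised again, and since they were already logged no pseudocount was added. Detection calls were not used here, so which signals exceed background is unknown, and the number of arrays limits the precision.

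After 66 control probe sets were left out, 7658 probe sets passed the filter. They were tested with limma 3.58.1 in R 4.3.3 (lmFit, eBayes with trend, two-sided, Benjamini-Hochberg over all of them, threshold 0.05). Dim members have values from the same fit without a filter. Pairs of probe sets, other than those with 99420_at, and correlations were tested by exact permutation in Python 3.11.15 with numpy 2.4.6 and pandas 2.3.3. For the correlations the p values are approximate, because group means were removed before values were permuted across groups. The main limma fit, the permutation tests and the Benjamini-Hochberg adjustment were tested on simulated data, and the alternative settings were not. Members and gene lists were chosen with earlier results of these data known. Gene names come from the platform annotation, and all 36 gene identifiers of the members were found in the RefSeq table of GRCm38.p6, used for chromosomes and gene order only. No probe sequences were used.

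Signals in every mouse were given for members past the threshold, for tested members without overlap, for the brightest tested probe set of each kind, for tested Ighm probe sets and for Jchain. Ighv3-6, 99421_at and 99369_f_at were added after their values were seen. A gene of a list was represented by its tested probe set of highest mean signal. Alternatives covered pseudocounts of 16 and 64, the filter, normalisation, the variance model, blocks for decimals and replicate number, a hair follicle covariate, and leaving out each mouse.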

Additional observations from a re-analysis of the deposited data

Results flagged for a closer look

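Within a group of 4 or 5 mice, 9 of 62 groups examined had 1 mouse far from the others by Dixon's test at 95%, which chance alone would give in about 1 of 20 groups. Knockout 4 was the low one for Igha 100583_at (105.7, next 178.7), kappa 102076_at (18.8, next 77) and the mixed heavy chain probe set 99421_at (189, next 397.8). Knockout 2 was the high one for Ighm 100362_f_at (101.6, next 72.5) and for Ighv3-6 96970_at (81.8, next 12.9), and knockout 5 the low one for Igkv14-111 100682_f_at (33.9, next 62.3). Among wild types, mouse 2 was low for Ighg3 102721_at (25.4, next 106.8) and for the mixed heavy chain probe set 92470_f_at (50.7, next 68.7). Wild type 4 was high for kappa 97567_f_at (501.3, next 269.6), one of the probe sets whose groups did not overlap.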

How the results depend on the processing

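The count of all called probe sets, 4, became 7 with a pseudocount of 64, 9 with array weights, 1 with the hair follicle covariate, 10 within the 7-decimal arrays and 0 within the 9-decimal arrays, and ran from 4 to 8 with 1 mouse left out (7 without knockout 2 or 3, 8 without knockout 4). The count of immunoglobulin probe sets, 1, became 2 without a filter (99369_f_at and 99420_at) and 2 with array weights (101640_f_at and 99420_at). It was 0 with a 60th percentile filter, which removes 99420_at, 0 within either kind of decimals and 0 with the hair follicle covariate, and 1 without any 1 mouse. The log2 difference of 99420_at was 2.24 and 2.41 within the 7- and 9-decimal arrays and 2.19 with the covariate, none past the threshold. The kappa median, -0.62, ran from -0.99 over the 6 probe sets left by the 60th percentile filter to -0.40 with a pseudocount of 64.

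Replicate numbers did not pair the mice (correlations of same-numbered deviations -0.046 to 0.11). With a replicate block, which drops knockout 5, limma called 1 probe set and 0 immunoglobulin ones, and 99420_at stood at 2.22 (adjusted p = 0.114), while 93584_at turned to 0.067.

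Differences near 0 changed sign. For 93584_at they were 0.023 with the decimals as a block, 0.33 within the 7-decimal arrays and ran from -0.14 to 0.067 without 1 mouse (above 0 without knockout 4 or 5 or wild type 1). Within the 7-decimal arrays 100362_f_at, 98765_f_at and 102721_at were at 0.19, 0.045 and 0.16. Without 1 mouse, 100362_f_at ran from -0.46 to 0.041 (above 0 without wild type 1 or 4) and 102721_at from -0.62 to 0.097 (above 0 without wild type 1, 3 or 4). The gap between 93584_at and 100362_f_at ran from -0.041 to 0.38.

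With 1 mouse left out, the gaps of 93583_s_at, 93584_at and 100362_f_at from 99420_at ran from -2.97 to -2.53, -2.57 to -2.15 and -2.90 to -2.23. The gap between 93583_s_at and 93584_at ran from -0.49 to -0.29.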
